A study of Mus musculus with 20 samples.

Results

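The genes described here are 37 genes of glycolysis and of the response to low oxygen, followed through 20 RNA-seq libraries of SCCVII tumors. They were taken by name from the gene table, which has 54309 rows, and fall into 13 glycolytic enzymes, 22 further targets of the hypoxia-inducible factor (HIF), and Hif1a and Slc16a1, which were placed in neither list. All 37 passed the filter on low counts, as did 19567 genes in all. SCCVII is a mouse squamous cell carcinoma line that was grown under the skin of immunocompetent C3H/HeOuJ mice. Each of the 10 groups had 2 libraries, called A and B.

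The treated groups are named by what the mice received. The single agents were APG-157 and, as antibodies, anti-CTLA-4, anti-CD8 and anti-PD-1. APG-157 was also given with either checkpoint antibody, as APG-157 + anti-PD-1 and APG-157 + anti-CTLA-4. The name dual blockade stands for anti-PD-1 + anti-CTLA-4, triple combination for the same pair of antibodies with APG-157, and CD8-depleted combination for anti-CD8 added to APG-157 + anti-CTLA-4. Control mice received none of these agents, and every mouse carried the same tumor line. APG-157 is a botanical drug made of curcumin and other molecules of Curcuma longa and was given in the chow. Anti-PD-1 and anti-CTLA-4 are antibodies that block checkpoint receptors on T cells, and anti-CD8 is an antibody that removes CD8+ T cells. The paper describes CD8 depletion as a mouse experiment with its own control and APG-157 + anti-CTLA-4 groups. No label gives the experiment of a library, so anti-CD8 groups may differ from the groups they are compared with by experiment as well as by treatment. The control and APG-157 + anti-CTLA-4 libraries could come from either experiment, so the same holds for every comparison that includes them. No label tells whether A and B of a group are separate tumors or repeats of 1 tumor, so every p-value below measures only the spread between libraries. The common coefficient of variation between the 2 APG-157 + anti-CTLA-4 libraries was 4.25%, against 20.8% to 68.2% in the other 9 groups. For APG-157 + anti-CTLA-4 the paper mentions 1 small tumor for flow cytometry and immunohistochemistry. It also mentions a single small tumor for the western blot of the depletion study. The paper does not state how many tumors of this group were sequenced, so its 2 libraries may not stand for 2 tumors.

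Cells break glucose down to pyruvate through a chain of glycolytic enzymes and, when oxygen is scarce, reduce the pyruvate to lactate. HIF is a pair of proteins whose alpha subunit, encoded by Hif1a, is marked for destruction by prolyl hydroxylases while oxygen is present. When oxygen falls, HIF raises the transcription of glucose transporters, glycolytic enzymes, genes that call in blood vessels and genes that handle acid, and in tumors this programme is known to run highest in the cells farthest from vessels.

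Library totals were between 43920291 and 72081724 expected counts. The tumor cells' simple-epithelium keratins Krt8 and Krt18 were at 508 to 981 and 468 to 1258 CPM (counts scaled to a common library size), whereas the squamous markers Krt5 and Krt14 had medians of 0 and 0.0359 CPM and reached at most 6.97 and 6.50 CPM, and Trp63 reached at most 1.76 CPM. Defining squamous markers were thus nearly absent although the line is labelled as a head and neck cancer line. Genes of other tissues differed widely between libraries: the summed level of 20 skeletal muscle genes ran between 27.2 and 7337 CPM, and that of 10 adipocyte genes between 25.6 and 130.2 CPM in 19 libraries and at 4568 CPM in replicate B of the CD8-depleted combination. Epcam and Cdh1, epithelial adhesion genes with medians of 0.212 and 4.43 CPM, reached 218 and 224 CPM in that library. These are bulk samples, in which fewer cells of a type and less RNA per cell cannot be told apart.

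HIF is known to bind DNA at a short core, written here as ACGTG or GCGTG and searched on both strands, where a palindromic CACGTG counts at 2 overlapping positions. Promoter windows reaching 250 bases before and 50 bases after the start farthest upstream were found in the RefSeq table (GRCm38.p6) for 35 of the 37 genes, all but Bhlhe40 and Ndrg1. Either core was present in 28 of the 35 windows (80.0%), against 43.8% of the windows of 27025 genes in the table, and it was present in 18 of 20 windows of HIF targets and 8 of 13 of the glycolytic enzymes. The median GC content of the windows was 65.0% for the 35 genes, against 52.7% for all genes, and the cores hold CG, so the shares differ together with base composition. A match is a description of letters and not a site.

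Windows of 7 genes are shown, with the cores in capitals: the glucose transporter gene Slc2a1, the acid-handling gene Car9 and the vessel growth factor gene Vegfa, which are the genes followed most closely below. The others are Ldha and Pgk1, enzymes with cores, Pfkp, an enzyme that fell in 1 comparison below, and Slc16a1, the gene that followed the others least although its window holds both cores. The Vegfa window has no core, and neither do those of Aldoa, Gpi1, Hk1, Mxi1, Pkm and Tpi1.
Car9 (chr4:43506776-43507075, plus strand): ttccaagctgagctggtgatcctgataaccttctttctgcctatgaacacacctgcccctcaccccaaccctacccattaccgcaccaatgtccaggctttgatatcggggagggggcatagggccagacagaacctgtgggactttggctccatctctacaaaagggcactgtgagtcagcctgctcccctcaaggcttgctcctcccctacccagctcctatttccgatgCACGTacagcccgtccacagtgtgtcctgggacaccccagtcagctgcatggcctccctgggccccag
Slc2a1 (chr4:119108495-119108794, plus strand): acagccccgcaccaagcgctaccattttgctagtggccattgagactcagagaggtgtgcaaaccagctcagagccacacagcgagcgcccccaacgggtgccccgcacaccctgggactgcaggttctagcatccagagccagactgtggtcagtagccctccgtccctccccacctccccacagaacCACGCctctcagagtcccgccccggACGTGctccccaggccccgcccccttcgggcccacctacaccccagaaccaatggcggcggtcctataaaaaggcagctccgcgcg
Vegfa (chr17:46032328-46032627, minus strand): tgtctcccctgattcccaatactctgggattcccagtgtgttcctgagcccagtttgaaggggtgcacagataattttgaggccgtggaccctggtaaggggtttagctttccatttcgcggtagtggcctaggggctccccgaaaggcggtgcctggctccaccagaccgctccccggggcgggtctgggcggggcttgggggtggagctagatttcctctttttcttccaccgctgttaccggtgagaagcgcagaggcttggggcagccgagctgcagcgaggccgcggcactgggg
Ldha (chr7:46845554-46845853, plus strand): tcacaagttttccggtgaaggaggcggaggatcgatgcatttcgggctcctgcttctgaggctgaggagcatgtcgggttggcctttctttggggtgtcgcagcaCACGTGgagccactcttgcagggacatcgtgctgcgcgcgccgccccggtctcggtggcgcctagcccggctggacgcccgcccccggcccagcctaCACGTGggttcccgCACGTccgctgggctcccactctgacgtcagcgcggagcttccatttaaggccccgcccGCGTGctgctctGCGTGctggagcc
Pgk1 (chrX:106186850-106187149, plus strand): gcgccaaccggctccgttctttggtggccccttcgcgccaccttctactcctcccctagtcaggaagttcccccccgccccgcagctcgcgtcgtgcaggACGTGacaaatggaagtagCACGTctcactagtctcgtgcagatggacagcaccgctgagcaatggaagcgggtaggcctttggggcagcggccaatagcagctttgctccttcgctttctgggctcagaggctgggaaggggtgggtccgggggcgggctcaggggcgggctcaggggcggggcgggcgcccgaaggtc
Pfkp (chr13:6648722-6649021, minus strand): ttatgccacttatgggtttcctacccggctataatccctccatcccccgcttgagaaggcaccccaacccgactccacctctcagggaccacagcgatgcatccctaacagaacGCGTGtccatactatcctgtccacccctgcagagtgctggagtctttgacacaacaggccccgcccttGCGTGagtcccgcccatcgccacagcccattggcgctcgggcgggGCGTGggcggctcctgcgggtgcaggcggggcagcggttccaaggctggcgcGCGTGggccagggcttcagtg
Slc16a1 (chr3:104638414-104638713, plus strand): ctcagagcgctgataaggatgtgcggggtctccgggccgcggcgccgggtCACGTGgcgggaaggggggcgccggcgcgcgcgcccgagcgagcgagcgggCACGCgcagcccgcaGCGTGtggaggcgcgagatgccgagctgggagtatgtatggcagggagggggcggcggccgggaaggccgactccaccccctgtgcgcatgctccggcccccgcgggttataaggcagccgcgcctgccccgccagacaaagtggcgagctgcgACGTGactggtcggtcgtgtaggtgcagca

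Car9 (ENSMUSG00000028463.15) encodes a carbonic anhydrase at the cell surface that helps to export acid. Its level was 29.5 and 39.2 CPM in CD8-depleted combination tumors, 45.1 and 44.7 CPM in APG-157 + anti-CTLA-4 tumors, 67.0 and 23.5 CPM in dual blockade tumors and 16.5 and 60.2 CPM in triple combination tumors (A and B in turn, here and below). It was 7.56 and 12.1 CPM in APG-157 + anti-PD-1, 16.1 and 8.21 CPM in anti-CTLA-4, 19.9 and 17.3 CPM in anti-PD-1, 17.98 and 49.9 CPM in anti-CD8, 32.9 and 15.4 CPM in APG-157 and 44.7 and 10.8 CPM in control tumors. The control libraries thus stood far apart, and every treated group overlapped them except APG-157 + anti-CTLA-4, whose lower library lay barely above the upper control library. In that group 28.8% of all genes tested had both libraries above both control libraries, and 28.8% had both below.

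Slc2a1 (ENSMUSG00000028645.12) encodes the main glucose transporter of most cells. It had 117 and 92.0 CPM in CD8-depleted combination tumors, 205 and 192 CPM in APG-157 + anti-CTLA-4 tumors, 307 and 104 CPM in dual blockade tumors and 90.2 and 146 CPM in triple combination tumors. It had 66.8 and 92.1 CPM in APG-157 + anti-PD-1, 102 and 73.4 CPM in anti-CTLA-4, 119 and 82.3 CPM in anti-PD-1, 65.9 and 122 CPM in anti-CD8, 90.6 and 117 CPM in APG-157 and 159 and 73.6 CPM in control tumors. Only the APG-157 + anti-CTLA-4 group had both libraries above both control libraries, a position shared by 28.8% of all genes tested in that group.

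Vegfa (ENSMUSG00000023951.19) encodes the growth factor that draws blood vessels towards oxygen-poor tissue. Its level was 83.0 and 84.0 CPM in CD8-depleted combination tumors, 158 and 149.9 CPM in APG-157 + anti-CTLA-4 tumors, 232 and 68.2 CPM in dual blockade tumors and 61.2 and 114 CPM in triple combination tumors. It was 49.8 and 66.3 CPM in APG-157 + anti-PD-1, 58.4 and 39.4 CPM in anti-CTLA-4, 84.4 and 55.4 CPM in anti-PD-1, 51.7 and 97.8 CPM in anti-CD8, 68.5 and 86.3 CPM in APG-157 and 128 and 54.0 CPM in control tumors. Dual blockade replicate A was the highest library and anti-CTLA-4 replicate B the lowest. Again only APG-157 + anti-CTLA-4 had both libraries above both control libraries, as 28.8% of all genes tested did in that group.

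**Figure D1:**
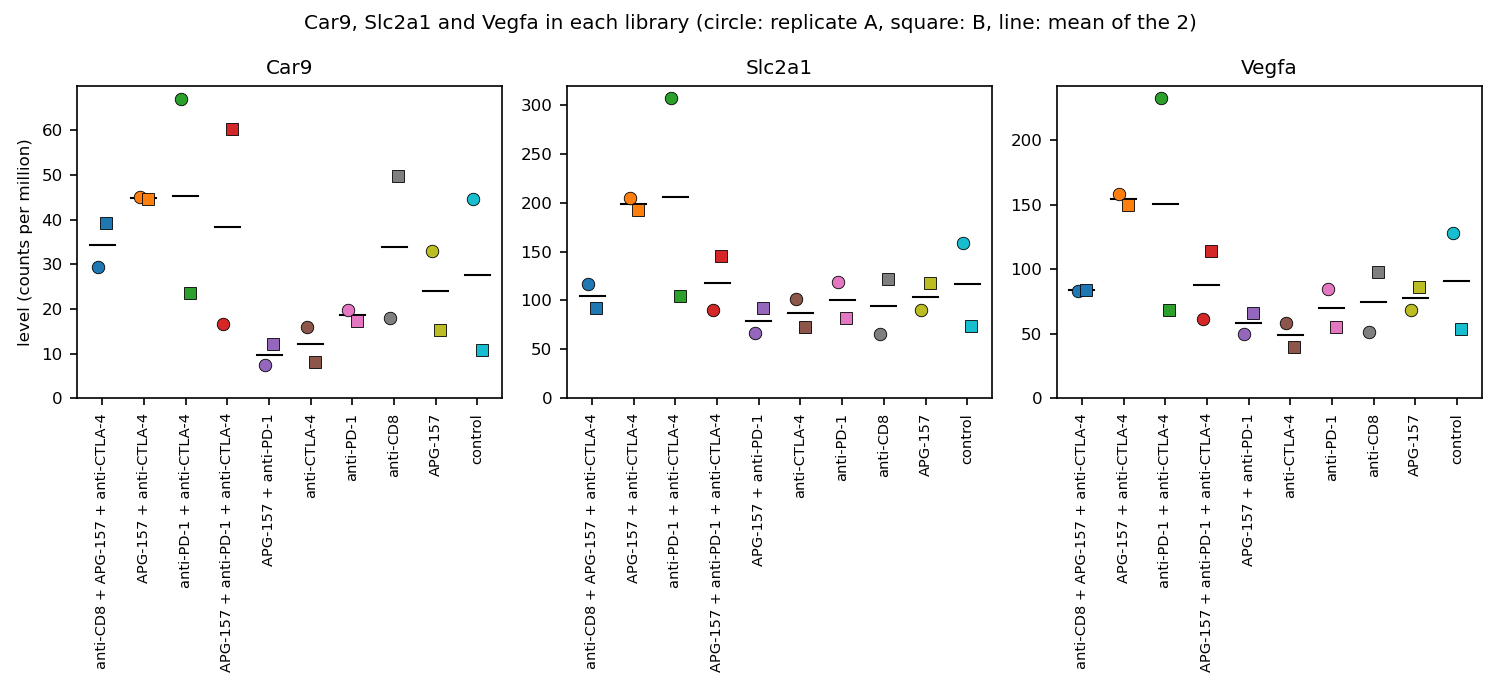
Level of Car9, Slc2a1 and Vegfa in CPM on a linear axis from 0, for each of the 10 groups, with a circle for replicate A, a square for replicate B and a line at their mean. Dual blockade replicate A is the highest library for all 3 genes (67.0, 307 and 232 CPM), and the 2 APG-157 + anti-CTLA-4 libraries nearly coincide.

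The levels of most of the 37 genes varied together from library to library. To follow them, each gene's log2(CPM + 0.1) was centred on its mean over the 20 libraries and then averaged over the 13 enzymes and over the 22 HIF targets. The HIF target mean ran from -0.73 in anti-CTLA-4 replicate B to 1.22 in dual blockade replicate A, and the enzyme mean from -0.35 in anti-CD8 replicate A to 0.69 in the same dual blockade library. That library held the highest value of 33 of the 37 genes, including all 13 enzymes. The exceptions were Slc16a1 and Pfkfb4, which were highest in APG-157 + anti-CTLA-4 libraries, Pfkfb3, highest in replicate B of the CD8-depleted combination, and Ddit4, an mTOR inhibitor induced by low oxygen, highest in control replicate A. Anti-CTLA-4 replicate B held the lowest value of 12 of the 37 genes and anti-CD8 replicate A that of 9.

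**Figure D2:**
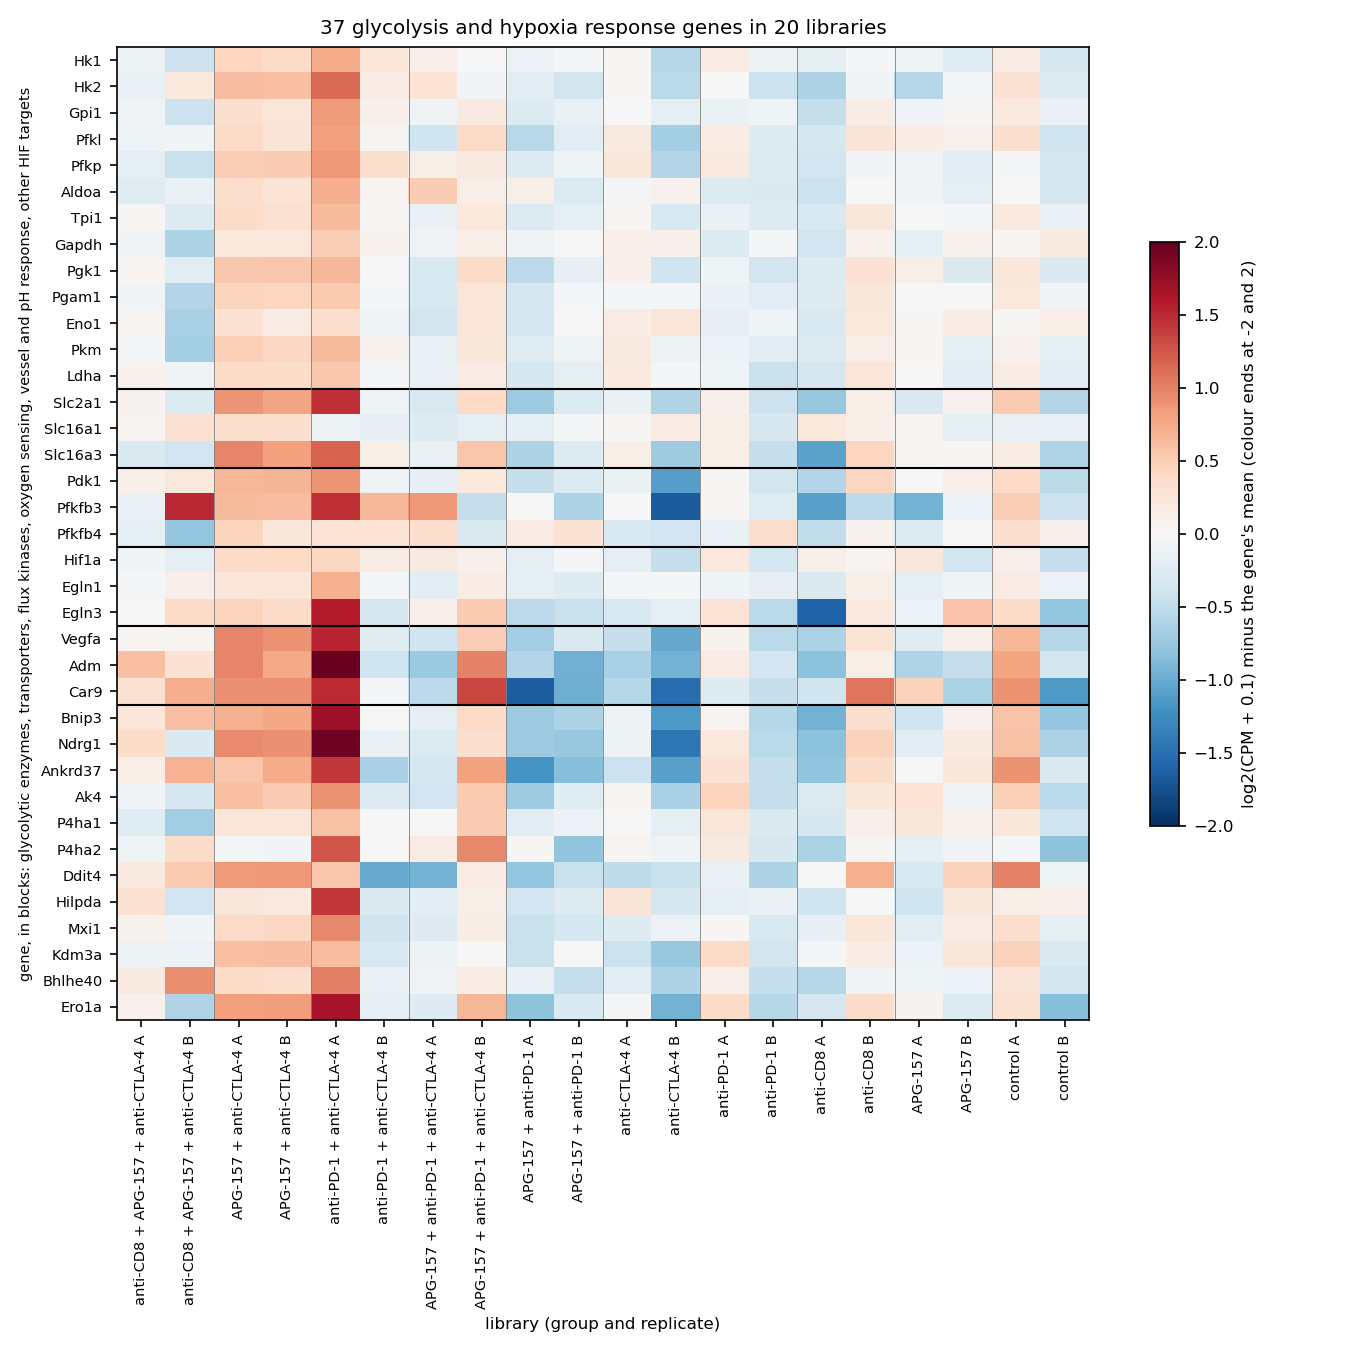
Each cell is the log2(CPM + 0.1) of a gene in a library minus the gene's mean over the 20 libraries, with genes in 6 blocks by role and libraries by group, control at the right. Columns tend to be red or blue over most rows: dual blockade replicate A is highest for 33 of 37 genes, and the colour scale ends at -2 and 2.

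HIF targets varied more than enzymes. The standard deviation (SD) of log2(CPM + 0.1) over the 20 libraries had a median of 0.58 over the 22 HIF targets and 0.30 over the 13 enzymes, against 0.34 over all genes tested and 0.21 over the 9799 genes at or above the lowest mean CPM of a member. For the enzymes the smallest SD was that of Gapdh, glyceraldehyde phosphate dehydrogenase, at 0.24, and the largest that of Hk2, the inducible hexokinase, at 0.44. Computed from the differences between A and B, the SD within groups had a median of 0.54 for HIF targets and 0.26 for enzymes.

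Pairs of HIF targets had a median Pearson r of 0.76 over the 20 libraries (231 pairs), pairs of enzymes 0.76 (78 pairs) and enzyme with HIF target pairs 0.66 (286 pairs), against -0.01 for pairs of genes at large. The enzyme mean and the HIF target mean had r = 0.88 and Spearman's rho = 0.80 over the 20 libraries, and r = 0.77 without the 2 libraries farthest from the median of the enzyme mean. The 10 differences between A and B gave r = 0.93 and rho = 0.95, with the 2 means moving the same way in 8 of 10 groups. These points share their library's total count and scaling, and the 2 libraries of a group share its treatment. The correlations are descriptions and carry no p.

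**Figure D3:**
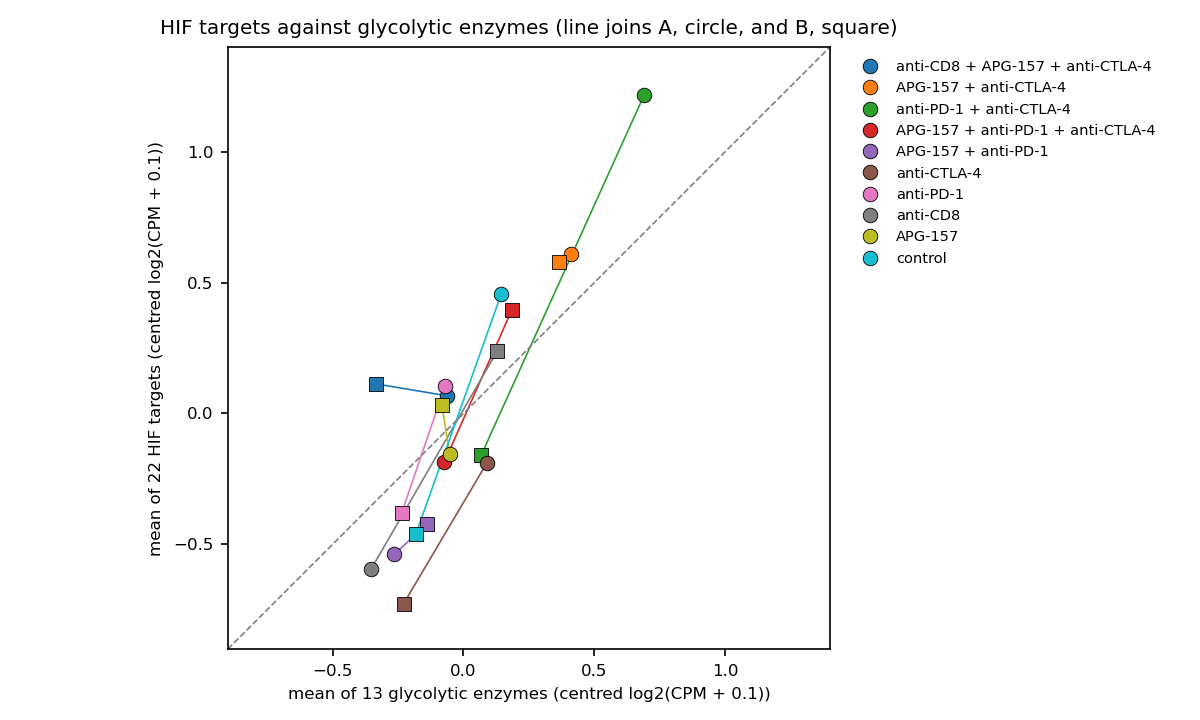
Mean of the 22 HIF targets against the mean of the 13 glycolytic enzymes, both as centred log2(CPM + 0.1), with a point for each library, a line joining A and B of a group and a dashed line of equal values. The points follow a path steeper than the dashed line (r = 0.88), with dual blockade replicate A at the top (0.69 and 1.22) and CD8-depleted combination replicate B (-0.34 and 0.11) well above the line.

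Set against the mean of the other HIF targets, Vegfa had the highest r of all members (0.98), and r was above 0.8 for 16 of 22 HIF targets and 6 of 13 enzymes. Over the 19530 genes that are no members, r with the HIF target mean was above 0.8 for 0.148%. Members near the other end were Slc16a1 (0.19), Pfkfb4 (0.24), Eno1 (0.40) and Gapdh (0.45). Among 35 other hypoxia genes and 26 other glycolysis genes of fixed lists, r was above 0.8 for 5 and 3. Their highest values were 0.94 for Bnip3l, a receptor that marks mitochondria for removal, and 0.95 for Eno2, an enolase. Both were picked after their values were seen.

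HIF target mean minus enzyme mean was 0.45 in replicate B of the CD8-depleted combination and 0.53 in dual blockade replicate A, the highest of 20, and -0.50 in anti-CTLA-4 replicate B, the lowest. In that CD8-depleted combination library the enzymes were low (-0.34) while the HIF targets were near their average (0.11), and it is the library with 4568 CPM of adipocyte genes. The part of that tissue in the difference was not tested.

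In dual blockade tumors 36 of 37 genes were higher in A than in B, with a median difference of 0.93 on the log2 scale, and in control tumors 35 of 37, with a median of 0.63. In anti-CD8 tumors 35 of 37 were lower in A, with a median difference of -0.56. Over all genes tested the median difference was -0.02 in dual blockade, 0.02 in anti-CD8 and -0.02 in control tumors. The APG-157 + anti-CTLA-4 pair differed by a median of 0.02.

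Against control, no member was called in any of the 9 treated groups at an adjusted p under 0.05 (edgeR quasi-likelihood test on the counts of all 10 groups, Benjamini-Hochberg over 19567 genes). Of all genes, 0.0204% were called in APG-157 + anti-CTLA-4 tumors, 0.0102% in CD8-depleted combination tumors and 0% in each of the other 7 groups. DESeq2 called 0 members in each as well, where it called 7.12% of all genes in CD8-depleted combination, 2.31% in APG-157 + anti-CTLA-4, 0.539% in dual blockade, 0.13% in triple combination, 0.127% in anti-CTLA-4, 0.0358% in APG-157, 0.0307% in anti-CD8, 0.0204% in APG-157 + anti-PD-1 and 0.0102% in anti-PD-1 tumors.

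At an unadjusted p under 0.05 in edgeR, 5 members were higher in APG-157 + anti-CTLA-4 tumors, where 11.1% of all genes passed, 4 were higher in dual blockade tumors (6.04% of all genes) and 2 were higher in triple combination tumors (4.48%). In anti-CTLA-4 tumors 2 were lower (6.45% of all genes) and in APG-157 + anti-PD-1 tumors 2 were lower (2.43%). In CD8-depleted combination tumors 1 was higher and 1 lower, where 19.1% of all genes passed, in anti-CD8 tumors 1 was higher (1.19%), and the number was 0 in APG-157 (0.761%) and anti-PD-1 tumors (0.618%). The 5 members in APG-157 + anti-CTLA-4 tumors are thus close to the share of all genes, and the 2 in the CD8-depleted combination are below it.

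APG-157 + anti-CTLA-4 tumors had estimates above control for all 37 genes, with a median log2 fold change of 0.48, against -0.03 over all genes. The median was 0.40 for the 13 enzymes and 0.50 for the 22 HIF targets, and both libraries lay above both control libraries for 31 genes, among them 12 enzymes and 17 HIF targets, against 28.8% of all genes tested. Both libraries lay below both control libraries for no member and for 28.8% of all genes. The 6 genes that overlapped were Pfkl, Pfkfb4, Adm, Ankrd37, P4ha2 and Ddit4. Estimates ran between 0.09 for Hilpda, a lipid droplet protein, and 1.09 for Slc16a3, which exports lactate. The lowest adjusted p was 0.288 (edgeR), for Slc16a1, at a log2 fold change of 0.48 ± 0.14 (standard error, n = 2 libraries each).

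For the 3 markers, Car9 was 0.69 ± 0.77, Slc2a1 0.77 ± 0.49 and Vegfa 0.76 ± 0.54 above control on the log2 scale in APG-157 + anti-CTLA-4 tumors (log2 fold change ± standard error), and the 95% intervals reached -0.97 to 2.36, -0.28 to 1.82 and -0.40 to 1.92. Leaving out a library changed these folds widely: Car9 ranged between 0.00 and 2.05, Slc2a1 between 0.32 and 1.43 and Vegfa between 0.27 and 1.51. The largest values came without control replicate A and the smallest without control replicate B. With the endothelial mean as a covariate the estimates were -0.20 for Car9, 0.22 for Slc2a1 and 0.24 for Vegfa, and with the muscle mean 0.30, 0.58 and 0.53.

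Genes of other cell types moved in the same comparison. All 18 endothelial genes had estimates below control in APG-157 + anti-CTLA-4 tumors, with a median log2 fold change of -1.12, and 10 had an unadjusted p under 0.05 while edgeR called 0. The mean of 10 fibroblast genes was 5.42 and 5.41 log2(CPM + 0.1) in APG-157 + anti-CTLA-4 tumors, against 6.91 and 6.81 in control tumors, and that of 20 skeletal muscle genes -1.40 and -1.39, against 1.32 and 2.20. Beyond the endothelial and muscle covariates, the part of these cells in the estimates of the members was not tested. The other genes of the pathways had smaller estimates, with a median of 0.09 over 26 other glycolysis genes and 0.02 over 35 other hypoxia genes, and edgeR called 0 of them and 3 of each list had an unadjusted p under 0.05.

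In dual blockade tumors 36 of 37 estimates were above control, all but Ddit4, with a median log2 fold change of 0.47, against -0.04 over all genes. Both libraries lay above both control libraries for 6 genes, Hk1, Pfkp, Aldoa, Pfkfb3, Hif1a and P4ha2, against 18.8% of all genes, and the rest overlapped. Car9 had 0.71 ± 0.77, Slc2a1 0.82 ± 0.49 and Vegfa 0.73 ± 0.54 on the log2 scale, and without replicate A, the library with the highest means, the estimates were -0.21, -0.13 and -0.39. The direction of these 3 estimates thus rested on a single library.

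Median estimates of the other groups were near or below 0. The median log2 fold change of the 37 genes was -0.18 in anti-CTLA-4, -0.32 in APG-157 + anti-PD-1, -0.17 in anti-PD-1, -0.08 in APG-157, -0.08 in anti-CD8, -0.08 in CD8-depleted combination and 0.04 in triple combination tumors. In anti-CTLA-4 tumors the HIF targets (-0.48) lay further below control than the enzymes (-0.11), and 21 of the 22 HIF targets had negative estimates. In APG-157 + anti-PD-1 tumors 21 of 22 were negative as well. These comparisons share the control libraries, which are far apart.

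**Figure D4:**
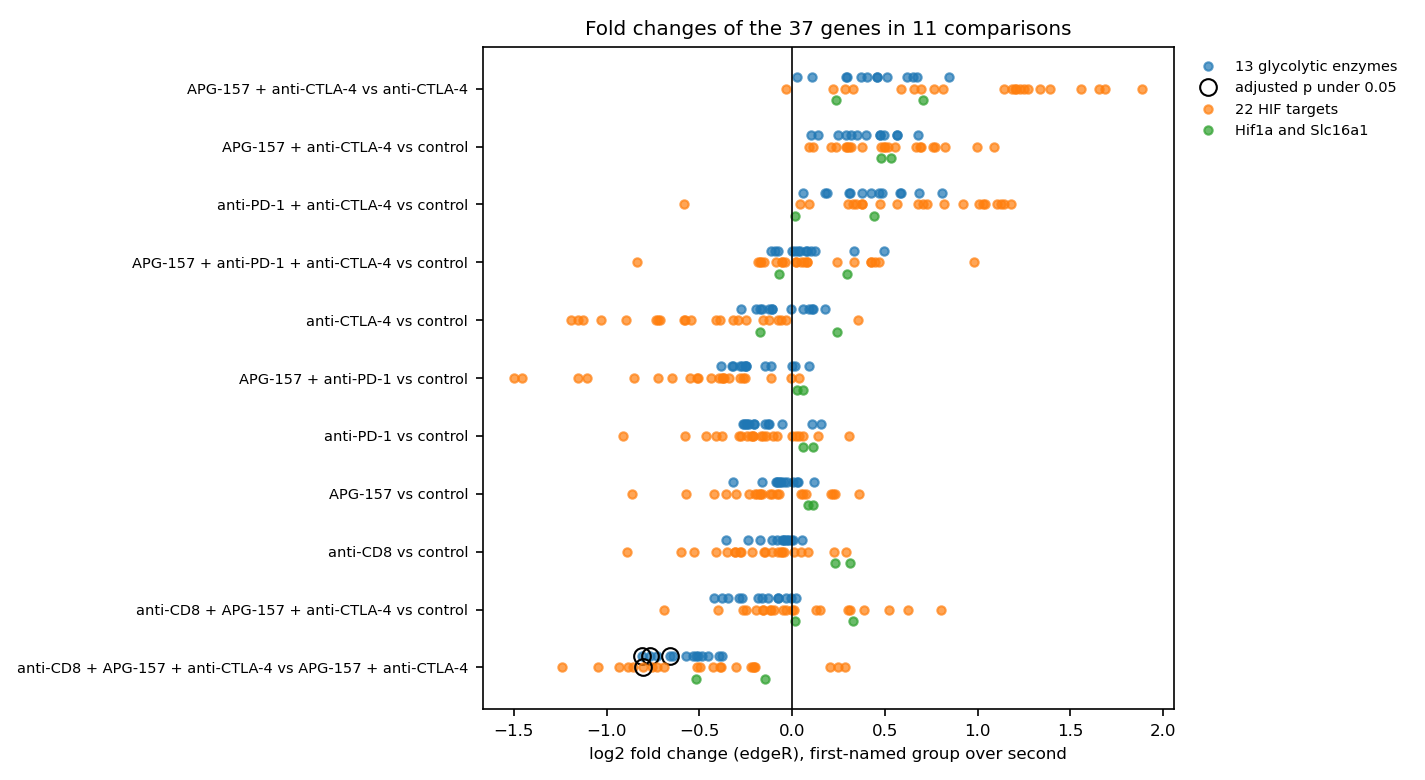
Log2 fold changes from edgeR (first-named group over second) of the 13 enzymes, the 22 HIF targets, and Hif1a and Slc16a1 in 11 comparisons, with open rings at an adjusted p under 0.05. All 37 points are above 0 in APG-157 + anti-CTLA-4 against control, and the 4 rings are at the bottom, in CD8-depleted combination against APG-157 + anti-CTLA-4.

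Anti-CTLA-4 tumors with and without APG-157 were also compared directly. APG-157 + anti-CTLA-4 against anti-CTLA-4 gave positive estimates for 36 of 37 genes, with a median log2 fold change of 0.67, against -0.09 over all genes, and 1.19 for the 22 HIF targets. No member was called by edgeR with all groups in the fit, where 0.00511% of genes were called, 16 had an unadjusted p under 0.05, against 23.6% of all genes, and the lowest adjusted p was 0.0696, for Kdm3a, a histone demethylase, at a log2 fold change of 1.20 ± 0.32. Both libraries of the combination lay above both anti-CTLA-4 libraries for 34 genes, all but Eno1, P4ha2 and Hilpda, against 28.6% of all genes.

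The call in this contrast depended on the tool and on the libraries in the fit. DESeq2 called 8 members, all higher (Pdk1, Ddit4, Hif1a, Vegfa, Pfkfb4, Car9, Hk1 and Kdm3a), where it called 17.8% of all genes, and edgeR on these 4 libraries alone called 12, where it called 14.3%. In that smaller fit the spread came from these 2 groups only, with a coefficient of variation of 4.25% in APG-157 + anti-CTLA-4 and 47.0% in anti-CTLA-4 tumors. Car9 had 45.1 and 44.7 CPM in APG-157 + anti-CTLA-4 tumors, against 16.1 and 8.21 CPM in anti-CTLA-4 tumors, a log2 fold change of 1.89 ± 0.79 (adjusted p = 0.175 from edgeR). Vegfa had 158 and 149.9 CPM, against 58.4 and 39.4 CPM in anti-CTLA-4 tumors, at 1.66 ± 0.55 (adjusted p = 0.1 from edgeR), and Slc2a1 205 and 192 CPM, against 102 and 73.4 CPM, at 1.19 ± 0.49 (adjusted p = 0.169 from edgeR). The 2 groups did not overlap for any of these 3 genes. Over all genes tested, both libraries of the combination lay above both anti-CTLA-4 libraries for 28.6% and below for 32.9%.

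Genes of other cell types moved in this contrast too. All 18 endothelial genes had estimates below anti-CTLA-4 tumors, with a median log2 fold change of -0.65, and 6 had an unadjusted p under 0.05. Skeletal muscle genes summed to 43.8 and 42.1 CPM in APG-157 + anti-CTLA-4 tumors, against 27.2 and 2692 CPM in anti-CTLA-4 tumors, and the muscle-rich library is the one that was lowest for 12 members. With the endothelial mean as a covariate the log2 fold changes were 1.21 for Car9, 0.78 for Slc2a1 and 1.27 for Vegfa, and with the muscle mean 1.36, 0.92 and 1.34.

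Whether APG-157 did more in the presence of anti-CTLA-4 was tested as the difference of its 2 effects. No member was called (edgeR, 0.00511% of all genes called), and 7 had an unadjusted p under 0.05, against 10.1% of all genes. The estimates were positive for 36 of 37 members, with a median of 0.72 on the log2 scale, and Vegfa had 1.89 ± 0.76 (adjusted p = 0.463 from edgeR). Car9 had 2.09 ± 1.09 (adjusted p = 0.529 from edgeR) and Slc2a1 1.35 ± 0.69 (adjusted p = 0.518 from edgeR).

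In CD8-depleted combination tumors against APG-157 + anti-CTLA-4 tumors, 4 members fell by edgeR's quasi-likelihood test: Pfkp, Pkm, Hk1 and Pfkfb4. The common coefficient of variation between libraries was 68.2% in CD8-depleted combination tumors, the largest of all groups. It was 4.25% in APG-157 + anti-CTLA-4 tumors, the smallest. The spread in this test was fitted over all groups, with a common value of 38.7%, below that of the CD8-depleted combination. All 13 enzymes had negative estimates, with a median of -0.53, and 31 of the 37 genes had both libraries below both APG-157 + anti-CTLA-4 libraries, against 31.1% of all genes. By the same test 19% of all genes were called, and 8.18% were called lower, and 4 of 37 members is close to that share. DESeq2 called 6 members, all lower (Pgam1, Pfkp, Slc16a3, Pfkfb4, Pkm and Hk1), where it called 30.1% of all genes and 12.3% lower.

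Pfkp encodes the platelet-type phosphofructokinase, which commits sugar to glycolysis. Its level was 84.5 and 70.8 CPM in CD8-depleted combination tumors, against 136 and 136 CPM in APG-157 + anti-CTLA-4 tumors, and it fell by 0.81 ± 0.25 on the log2 scale (adjusted p = 0.044 from edgeR). Pkm, pyruvate kinase, had 1695 and 1069 CPM, against 2397 and 2295 CPM, and fell by 0.76 ± 0.24 (adjusted p = 0.0462 from edgeR). Hk1, the hexokinase of most tissues, had 102 and 81.7 CPM, against 147 and 143 CPM, and fell by 0.66 ± 0.22 (adjusted p = 0.0496 from edgeR). Pfkfb4, which makes the activator of phosphofructokinase, had 17.6 and 11.8 CPM, against 27.6 and 23.7 CPM, and fell by 0.80 ± 0.25 (adjusted p = 0.0452 from edgeR).

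No member was called with the 4 libraries alone, with the muscle or endothelial mean as a covariate, or at a log2 fold change over 1. Calls also changed when a library was left out or A and B of APG-157 + anti-CTLA-4 were summed. Such fits leave 1 library in a group, so their counts are weak evidence and are listed only in the closing section on processing. The 4 log2 fold changes stayed negative: with a library left out they ranged between -0.97 and -0.69 for Pfkp, -0.85 and -0.51 for Hk1, -1.16 and -0.47 for Pkm and -1.15 and -0.54 for Pfkfb4, the smallest falls coming without replicate B of the CD8-depleted combination and the largest without replicate A. With the endothelial mean as a covariate they were -0.29 for Pfkp, -0.30 for Hk1, -0.23 for Pkm and -0.83 for Pfkfb4, and with the muscle mean -0.70, -0.62, -0.69 and -0.85. Replicate B of that group, the adipocyte-rich library, had the lowest values of 6 members among the 20 libraries: Pkm, Pfkfb4, Gapdh, Pgam1, Eno1 and P4ha1. Endothelial genes averaged 3.76 and 4.54 log2(CPM + 0.1) in CD8-depleted combination tumors, against 2.70 and 2.72 in APG-157 + anti-CTLA-4 tumors.

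Among the other genes of the 2 pathways, 3 of 26 glycolysis genes (Ldhb, Pfkfb1 and Mpc2) and 5 of 35 hypoxia genes (Lox, Edn1, Arnt2, Hif3a and Epas1) were called in the same contrast, and all 8 were higher, where 10.8% of all genes were called higher, so both shares are close to that of all genes. The endothelial list had 13 of 18 genes called higher. Epas1 is the second alpha subunit of HIF and Edn1 a vasoconstrictor, and both are expressed in endothelium.

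Over the 8 groups without anti-CD8, which cross APG-157 with the 2 checkpoint antibodies, no member was called for APG-157, for anti-PD-1 or for anti-CTLA-4 by edgeR, where 0%, 0% and 0.25% of all genes were called. For anti-CTLA-4, 36 of 37 estimates were positive and 13 had an unadjusted p under 0.05, all higher, against 10.1% of all genes. Aldoa, the aldolase of muscle and most other tissues, had the lowest adjusted p, with a log2 effect of 0.44 ± 0.11 (adjusted p = 0.137 from edgeR), followed by Pfkp with 0.42 ± 0.13 (adjusted p = 0.219 from edgeR). DESeq2 called these 2 members and 3.55% of all genes, with adjusted p of 0.00977 and 0.0453. Of the 35 other hypoxia genes edgeR called 1 for anti-CTLA-4, Nos2, at a log2 effect of 2.40 (adjusted p = 0.037 from edgeR). Of the 26 other glycolysis genes it called 0. The anti-CTLA-4 effect averages unlike groups, since anti-CTLA-4 alone had 30 of 37 estimates below control. The HIF target mean was -0.46 in anti-CTLA-4, 0.10 in triple combination, 0.53 in dual blockade and 0.59 in APG-157 + anti-CTLA-4 tumors. In dual blockade it was 1.22 in A and -0.16 in B.

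For APG-157 the numbers were 20 of 37 positive and 0 with an unadjusted p under 0.05, against 7.36% of all genes, and for anti-PD-1 they were 18 of 37 and 2, both lower, against 8.77%. DESeq2 called 0 members for either, and 0.0409% and 0.902% of all genes. Any difference among the 10 groups was called for no member, against 0.879% of all genes, with Pfkp having the lowest adjusted p (0.244 from edgeR), and 5 members had an unadjusted p under 0.05, close to the 16.5% of all genes. DESeq2's likelihood ratio test called 6 members, Hk1, Hk2, Pfkp, Aldoa, Adm and Slc16a1, where it called 17.8% of all genes. Of the 35 other hypoxia genes, Nos2 was again the only 1 called for any difference among the groups (adjusted p = 0.0429 from edgeR).

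The transporter genes differed in spread. Slc16a3, which exports lactate, had 68.8 and 64.4 CPM in CD8-depleted combination, 166 and 149 CPM in APG-157 + anti-CTLA-4 tumors, 189.8 and 91.5 CPM in dual blockade and 92.9 and 55.6 CPM in control tumors. Slc16a1, a lactate carrier of the same family, lay between 57.0 and 90.4 CPM over all 20 libraries, had the smallest SD of all 37 members (0.20), and was highest in APG-157 + anti-CTLA-4 tumors, at 89.0 and 90.4 CPM. Its r with the HIF target mean was 0.19, against 0.89 for Slc16a3.

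The kinases that set glycolytic and pyruvate flux also differed in spread. Pfkfb3, the other maker of the phosphofructokinase activator, had the largest SD of the 3 (0.81) and ranged 9.14-fold, with its highest level, 90.1 CPM, in replicate B of the CD8-depleted combination and its lowest, 9.86 CPM, in anti-CTLA-4 replicate B. Pdk1, whose product inhibits pyruvate dehydrogenase in mitochondria, followed the HIF targets with r = 0.95 and ranged 3.96-fold. Pfkfb4 had the smallest SD, 0.34.

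Hif1a, whose product is known to be controlled mostly as protein, ranged 1.86-fold. The hydroxylase genes, themselves HIF targets, divided: Egln1 ranged 2.00-fold with the smallest SD of the 3, 0.23, and Egln3 ranged 9.27-fold, with 144 and 38.3 CPM in dual blockade and 61.7 and 27.8 CPM in control tumors. Adm, a vasodilator peptide gene, ranged 9.17-fold between 5.38 and 49.3 CPM.

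Gapdh had 1231 and 841 CPM in the CD8-depleted combination, 1482 and 1490 CPM in APG-157 + anti-CTLA-4 tumors, 1811 and 1343 CPM in dual blockade and 1320 and 1453 CPM in control tumors, so that its highest and lowest libraries were 2.15-fold apart. Hk2 had 58.1 and 74.9 CPM in the CD8-depleted combination, 98.9 and 98.6 CPM in APG-157 + anti-CTLA-4 tumors, 143 and 71.5 CPM in dual blockade and 79.4 and 54.0 CPM in control tumors, a range of 3.40-fold over all libraries. By SD, Gapdh was thus the steadiest and Hk2 the most variable of the enzymes. Gpi1 (glucose phosphate isomerase), Pfkl (the liver-type phosphofructokinase), Tpi1 (triose phosphate isomerase), Pgk1, Pgam1 (phosphoglycerate mutase), Eno1 (an enolase), Ldha (lactate dehydrogenase) and Aldoa ranged between 1.92-fold (Tpi1) and 2.82-fold (Pfkl). The other HIF targets were led by Ndrg1, a stress-response gene, which had 684 and 161 CPM in dual blockade, 341 and 335 CPM in APG-157 + anti-CTLA-4 tumors and 267 and 115 CPM in control tumors and ranged 10.5-fold. Bnip3, a mitophagy receptor, ranged 7.28-fold, Ankrd37 6.23-fold, Ero1a, an oxidase of the endoplasmic reticulum, 6.07-fold, and P4ha2, a collagen prolyl hydroxylase, 4.20-fold. Ddit4, Hilpda, Bhlhe40 (a transcriptional repressor), Ak4 (a mitochondrial adenylate kinase), Mxi1 (a Myc antagonist) and Kdm3a ranged between 2.60-fold (Kdm3a) and 4.02-fold (Ddit4). P4ha1, the paralog of P4ha2, ranged 2.43-fold and had the smallest SD of these 12, 0.32. Gapdh, Pgam1, Tpi1, Ldha, Aldoa, Pkm and Eno1 have processed copies elsewhere in the genome, among which Salmon can divide reads, and their levels are uncertain to that extent. Eno1b, a copy of Eno1 with its own row, had a median of 655 CPM (382 to 844), against 528 CPM for Eno1. The part of such a division in the r of 0.40 between Eno1 and the HIF target mean was not tested.

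The mean of 18 endothelial genes was lowest in APG-157 + anti-CTLA-4 tumors (2.70 and 2.72 log2(CPM + 0.1)) and highest in replicate B of the CD8-depleted combination (4.54), and none of the 18 genes was at 0 in any library. Over the 20 libraries the enzyme mean had r = -0.47 and rho = -0.54 with it, and the HIF target mean r = -0.25 and rho = -0.29. Without the 2 libraries farthest from the median of the endothelial mean, r was -0.28 for the enzymes and -0.22 for the HIF targets. A negative r was not particular to endothelial genes. With the skeletal muscle mean, r was -0.51 for Car9, -0.49 for Slc2a1 and -0.52 for Vegfa, against -0.28, -0.38 and -0.33 with the endothelial mean. Other members went the other way, such as Pkm, with -0.35 for muscle and -0.63 for endothelium.

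Between A and B of a group the enzyme mean and the endothelial mean moved opposite ways in 9 of 10 groups (r = -0.45) and the HIF target mean in 7 of 10 (r = -0.29). Dual blockade ran the other way for both, since replicate A was higher than B in members and in endothelial genes. Without that library r over the 19 others was -0.72 for the enzymes and -0.43 for the HIF targets. With 8 endothelial genes that respond to hypoxia or VEGF in place of the 18, r was -0.06 for the enzymes and 0.01 for the HIF targets.

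**Figure D5:**
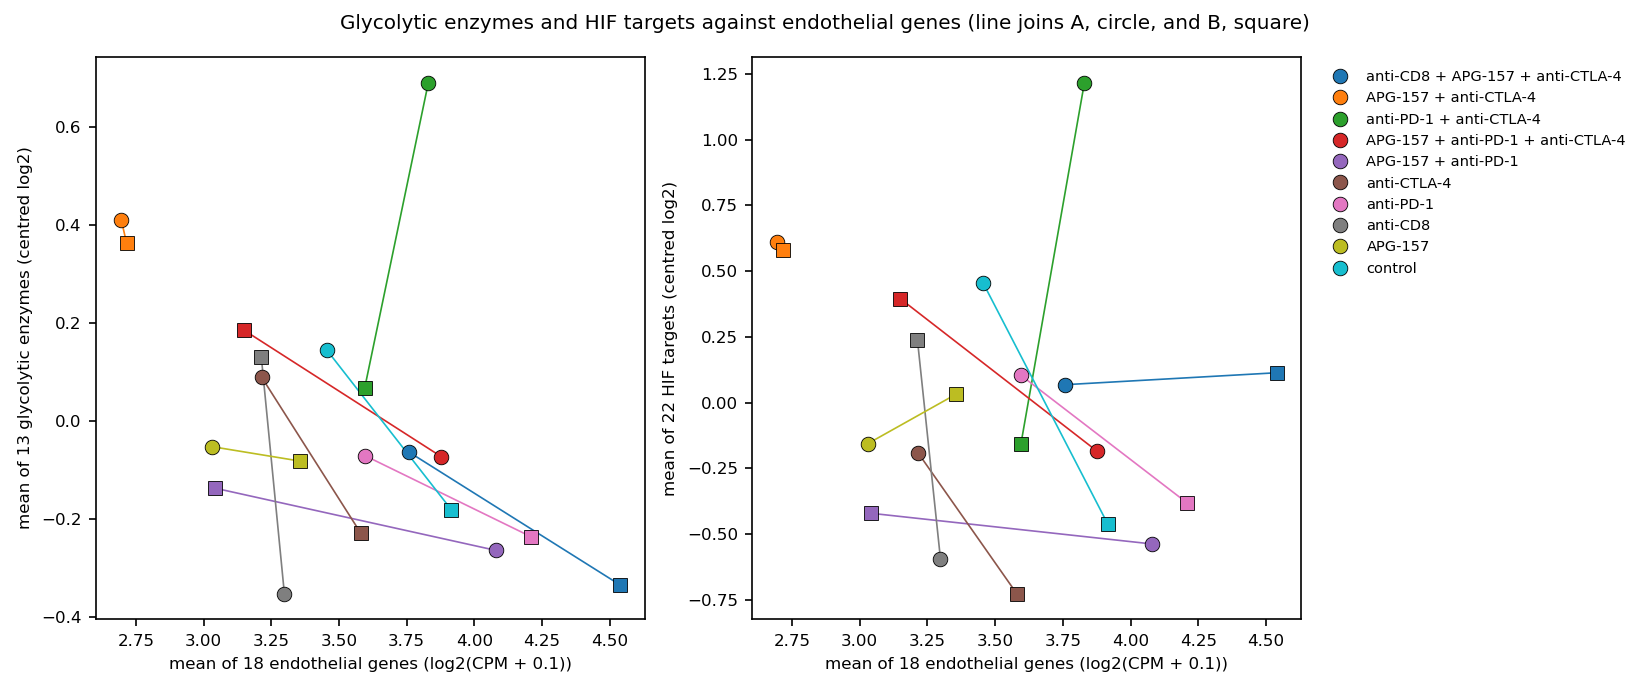
Mean of the 13 enzymes (left) and of the 22 HIF targets (right), as centred log2(CPM + 0.1), against the mean of 18 endothelial genes in log2(CPM + 0.1), with a point for each library and a line joining A and B. Most lines slope downward (9 of 10 for enzymes, 7 of 10 for HIF targets). The dual blockade line slopes upward.

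As a test, the slope of each gene on the endothelial mean within groups was fitted in edgeR across all genes. No member was called by edgeR, against 1.49% of all genes, 31 of 37 slopes were negative, and 6 had an unadjusted p under 0.05, all negative: Pgk1, Ak4, P4ha1, Pgam1, Pkm and Ero1a. Over all genes 21.4% had such a p, a larger share than that of the members. DESeq2 called 0 members and 10.8% of all genes. Pgk1, an enzyme that makes ATP in glycolysis, had a slope of -0.54 ± 0.19 per log2 unit (adjusted p = 0.149 from edgeR), and Ak4 -0.82 ± 0.30 (adjusted p = 0.157 from edgeR). On the skeletal muscle mean, 35 of 37 slopes were negative, 4 had an unadjusted p under 0.05, against 4.5% of all genes, and neither edgeR, which called 1.04% of all genes, nor DESeq2, which called 2.13%, called a member. Beyond these slopes and the fits with either mean as a covariate, the part of muscle and endothelium in the members' levels was not tested.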

How the data were processed

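RNA was measured in 20 libraries of SCCVII tumors, 2 for each of 10 groups, with groups taken from the sample labels. The authors trimmed reads with Trimmomatic 0.39 and quantified them with Salmon against GENCODE mouse transcripts (Salmon 1.5.0 and GRCm39 per the submitters' processing notes), and deposited expected counts per gene, which were rounded to whole numbers here. A second deposited table of log2 normalized values was not used. Gene symbols came from a GENCODE table, which named 51484 of 54309 rows. Ero1a was matched through a RefSeq synonym.

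Genes were kept by filterByExpr at a minimum count of 10, libraries were scaled by TMM, and 17 comparisons were fitted over all 10 groups with edgeR's robust quasi-likelihood test (edgeR 4.0.16, limma 3.58.1, R 4.3.3). The common biological coefficient of variation was 38.7%, with 10 residual degrees of freedom. The word called is used for an adjusted p (Benjamini-Hochberg) below 0.05. Levels are TMM-scaled CPM, and logarithms are log2(CPM + 0.1). DESeq2 1.42.0 was the alternative tool. The other alternatives were RLE size factors, no filter, the replicate letter as a block, the compared groups alone, a fold minimum, muscle or endothelial covariates, summed libraries, a pseudocount of 1, and each library left out. A fit without the adipocyte-rich library and correlations without the highest library were added after the data were seen. Scripts were tested on simulated data. Figures were drawn with matplotlib 3.10.9 in Python 3.11.15.

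Genes were named by rule: Car9, Slc2a1, Vegfa, every member called, the members of largest and smallest SD in each role, and of other genes at most 5 called per list. Further members are named to account for all 37. The members and lists were chosen with earlier results of these data known.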

Additional observations from a re-analysis of the deposited data

How the results depend on the processing

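Calls among the 37 genes changed with the processing in 6 comparisons. In the CD8-depleted combination against APG-157 + anti-CTLA-4, 4 members were called by edgeR, against 0 with the skeletal muscle mean as a covariate, 0 with the endothelial mean as a covariate, 0 with A and B of APG-157 + anti-CTLA-4 summed, 0 with the compared groups only, 0 at a log2 fold change over 1, and between 0 and 8 with a library left out. In the CD8-depleted combination against control, 0 were called, and between 0 and 3 with a library left out. In APG-157 + anti-CTLA-4 against anti-CTLA-4, 0 were called by edgeR, 12 with the compared groups only and 8 by DESeq2. DESeq2 called 2 for the anti-CTLA-4 effect over 8 groups and 6 for any difference among the groups, where edgeR called 0 and 0. With the endothelial mean as a covariate, Car9 in APG-157 + anti-CTLA-4 against control was at -0.20 on the log2 scale. With a library left out, dual blockade against control ranged between -0.21 and 2.10 for Car9, -0.13 and 1.51 for Slc2a1, and -0.39 and 1.505 for Vegfa, the low values coming without dual blockade replicate A and the high ones without control replicate A. The correlation of the HIF target mean with the endothelial mean was 0.013 with the hypoxia- or VEGF-responsive endothelial genes. The cause of these changes was not tested, except that summed, left-out and compared-groups fits hold fewer samples. The labels do not say whether the replicate letters pair the samples. Over 45 pairs of groups the correlation of same-letter deviations was between -0.38 and 0.71, with a median of 0.016, and was over 0.1 in 13. Beyond the replicate block, a difference shared by libraries of the same letter was not tested. With the replicate block, 1 member was called for the slope on the skeletal muscle mean, and the adjusted p of Pfkfb4 in the CD8-depleted comparison was 0.0522 (edgeR). All other counts of calls, 147 under alternatives and 147 with a library left out, stayed within 1.5 times the count given above. With 2 libraries a group, differences such as those of Car9, whose standard error in APG-157 + anti-CTLA-4 against control was 0.77, were not detectable below their intervals.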
